A study of Mus musculus with 2 samples.

Results

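Mir188, Mir362, Mir500, Mir501 and Mir532 form a conserved cluster of microRNA (miRNA) genes inside 1 intron of Clcn5 on the mouse X chromosome. They were chosen by position and name, as the miRNA genes of this intron in the M21 gene annotation, and are 5 of the 2202 miRNA genes counted. The RNA, selected below 30 nt, came from tissue labelled as a layer of the hippocampus of females of the 5xFAD/CAST strain, adults aged 8 to 10 months. Both libraries belong to that 1 group and are labelled as biological replicates 1 and 2, with separate biosample entries under 1 donor entry. The labels do not say how many animals went into each, so the spread between the libraries may be partly technical. 5xFAD mice are a transgenic model of Alzheimer's disease whose transgenes are driven by a neuronal Thy1 promoter, and CAST is the usual short form for an inbred strain of Mus musculus castaneus origin. Every animal thus carried the label of the transgenic strain, and no other genotype, age or tissue was analysed here.

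Clustered miRNAs are cut as hairpins from a shared primary transcript by Drosha, trimmed by Dicer and loaded as short mature strands into Argonaute. The seed, bases 2 to 8 of the mature strand, sets most of the pairing with target mRNAs. The host Clcn5 encodes ClC-5, an endosomal chloride/proton exchanger whose loss causes Dent disease of the kidney. In hippocampal neurons, miR-188-5p is known as a regulator of the semaphorin receptor gene Nrp2 at synapses, and miR-501-3p as an activity-regulated repressor of the AMPA receptor subunit gene Gria1 in dendrites.

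The mature strands are shown first because they divide the cluster into related groups. All 5 genes matched the RefSeq table (build GRCm38.p6), which gave 9 mature strands. Each is written 5′ to 3′ with the seed in capitals. The strands of Mir500, Mir501 and Mir362, the group at the downstream end of the cluster, were:
miR-501-3p: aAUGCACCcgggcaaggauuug
miR-500-3p: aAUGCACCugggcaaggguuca
miR-362-3p: aACACACCuguucaaggauuca
miR-500-5p: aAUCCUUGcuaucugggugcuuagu
miR-362-5p: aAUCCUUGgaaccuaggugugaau
miR-501-5p: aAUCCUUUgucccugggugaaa
The strands of Mir188 and Mir532, the pair at the upstream end, were as follows, with miR-532-5p named only:
miR-188-5p: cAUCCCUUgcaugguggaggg
miR-188-3p: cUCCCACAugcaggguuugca
miR-532-3p: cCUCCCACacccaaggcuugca

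These 9 strands carried 7 distinct seeds. miR-532-5p was not in the RefSeq table used, so it is left out of every seed and copy count. miR-500-3p and miR-501-3p had the same seed, AUGCACC, and differed at 4 of 22 bases. miR-362-5p and miR-500-5p shared the seed AUCCUUG, whereas miR-501-5p had a seed of its own, AUCCUUU. miR-188-3p and miR-532-3p had different seeds, but their hairpins shared the 10-base run CCCUCCCACA, within which both 3p strands begin. In all, 4 of the 9 strands shared a seed within the cluster and 6 of 9 shared one with any other gene, beside 32.0% of the 1738 mature strands in the table. No strand had an exact copy in another of 141767 annotated transcripts on either strand. The closest stretch in any other hairpin differed by at least 4 bases. The whole genome was not searched.

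Mir501 and Mir500 were the most alike of the hairpins, with a common run of 14 bases, CCUCUCUAAUCCUU. Their precursors are given with both mature strands in capitals, to show how far the resemblance goes beyond the seeds:
Mir501: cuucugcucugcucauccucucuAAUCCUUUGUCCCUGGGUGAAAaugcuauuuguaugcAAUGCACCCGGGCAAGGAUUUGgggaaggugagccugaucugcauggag
Mir500: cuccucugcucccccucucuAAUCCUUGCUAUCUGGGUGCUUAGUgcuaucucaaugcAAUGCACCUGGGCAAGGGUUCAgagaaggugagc

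Clcn5 (ENSMUSG00000004317.14) lies on the minus strand of chromosome X from 7153810 to 7319358 in mm10. In the direction of transcription the cluster runs Mir532 (ENSMUSG00000070139.1, 7248402 to 7248497), Mir188 (ENSMUSG00000065398.1, 7247989 to 7248056), Mir362 (ENSMUSG00000070100.1, 7241982 to 7242046), Mir501 (ENSMUSG00000076251.1, 7241243 to 7241351) and Mir500 (ENSMUSG00000070108.2, 7237683 to 7237774). The RefSeq hairpins have these same coordinates. The 5 hairpins span 10815 bases, with gaps of 345, 5942, 630 and 3468 bases between them. They lie in 1 intron of 103648 bases, from 7213011 to 7316658, and are the only annotated miRNA genes there. Of 5 annotated Clcn5 transcripts, the 3 that start upstream of the cluster (Clcn5-202, Clcn5-203 and Clcn5-204) contain that intron, as intron 3, 2 and 3. The other 2, Clcn5-201 and Clcn5-205, start downstream at 7188714 and 7188673 and do not contain it. Apart from Clcn5, no annotated gene overlapped a member on either strand, and none of the 5 had a count on the opposite strand in either library.

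Replicates 1 and 2 held 9962659 and 12761689 reads, of which 3135960 and 4377622 were assigned to miRNA genes on the sense strand. Levels are given as CPM, counts scaled to 1000000 of these assigned reads. Reads that mapped to several places, 36.3% and 41.7% of all reads, are in a line of their own outside the gene counts. A gene's count adds both strands of its hairpin, so the 5p and 3p products were not told apart. A count of 0 allowed up to 0.957 and 0.685 CPM (3 counts). This floor and the intervals below cover counting error only, since PCR copies are not independent molecules. Of the markers of neurons, 5 of 5 were detected, with summed levels of 44373 and 40337 CPM in replicates 1 and 2. Some markers here and below, such as Mir128-1 of neurons and Mir219a-1 of oligodendrocytes, have another numbered copy. Their counts may leave out reads that map to several places, so sums that hold them may be too low. The sums were 6799 and 6685 CPM for 3 oligodendrocyte markers, 7295 and 3321 CPM for 3 astrocyte markers and 1881 and 2111 CPM for 4 microglial and myeloid markers. Those of endothelium (1 gene) and mural cells (2 genes) were 12521 and 22475 CPM, and 8170 and 6864 CPM. The sums were 2949 and 1078 CPM for 3 choroid plexus and ependyma markers, 67.3 and 61.2 CPM for 2 red blood cell markers, 28.4 and 38.4 CPM for the liver marker Mir122 and 26.5 and 22.6 CPM for striated muscle, where Mir1a-1 and Mir133a-1, which have copies with the same mature strand elsewhere in the genome, were at 0.

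All 5 members were detected, taken as at least 10 counts in each library, beside 17.4% of all 2202 miRNA genes (384 genes). The cluster held 5161 counts in replicate 1 and 6061 in replicate 2. Together the members made up 0.165% and 0.138% of the assigned reads, or 1515 ± 185 CPM (SD, n = 2). The total was 1646 CPM in replicate 1 (exact Clopper-Pearson 95% interval 1601 to 1691) and 1385 CPM in replicate 2 (1350 to 1420). In this bulk tissue, fewer cells of a type and less RNA per cell cannot be told apart.

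Mir532, the first hairpin of the cluster, was its most abundant member. It had 2278 counts or 726 CPM in replicate 1 (697 to 757, exact 95% interval) and 3125 counts or 714 CPM in replicate 2 (689 to 739). The libraries lay close together, at 720.1 ± 8.88 CPM (SD, n = 2), which placed Mir532 at rank 110 of all miRNA genes.

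Mir501, whose 3p strand is the one known from dendrites, ranked second in the cluster. It had 1837 counts or 586 CPM in replicate 1 (559 to 613) and 1332 counts or 304 CPM in replicate 2 (288 to 321). Replicate 1 was the higher library, and the mean of 445 ± 199 CPM (SD, n = 2) had the widest spread of the members, in CPM and relative to the mean.

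Mir188, the source of miR-188-5p, reached 172 CPM in replicate 1 from 539 counts (158 to 187). In replicate 2 it was at 233 CPM from 1018 counts (218 to 247), so here replicate 2 was the higher. Its mean was 202 ± 42.9 CPM (SD, n = 2).

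Mir500, the last hairpin of the cluster, had 437 counts or 139 CPM in replicate 1 (127 to 153) and 458 counts or 105 CPM in replicate 2 (95.3 to 115). As for Mir501, replicate 1 was higher. The mean was 122 ± 24.6 CPM (SD, n = 2).

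Mir362 was the least abundant member, with 70 counts or 22.3 CPM in replicate 1 (17.4 to 28.2) and 128 counts or 29.2 CPM in replicate 2 (24.4 to 34.8). The counting intervals of the libraries overlapped for this gene and for Mir532, and for no other member. Mir362 averaged 25.8 ± 4.89 CPM (SD, n = 2), at rank 271, below the median of 116 CPM over the detected genes.

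**Figure D1:**
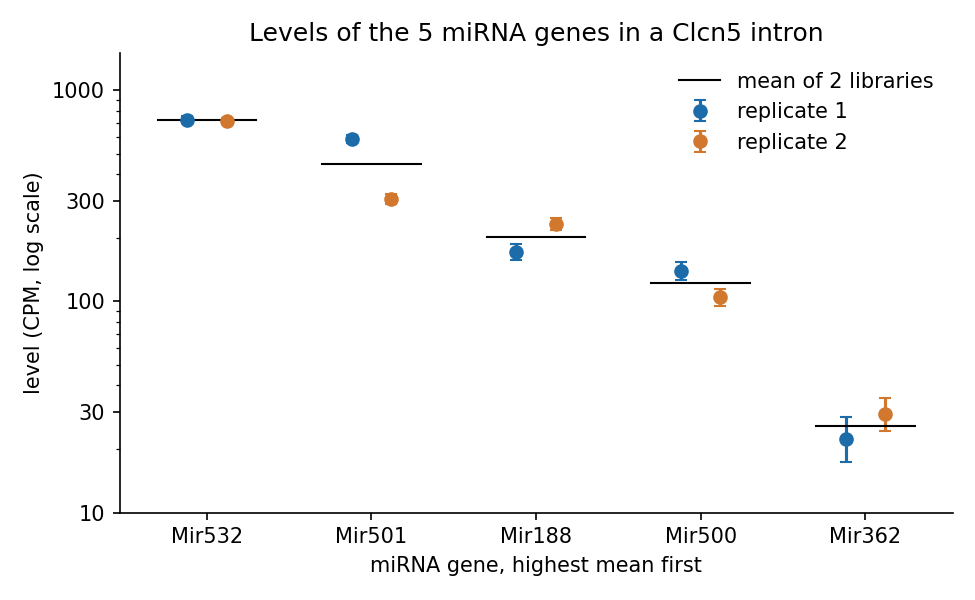
Level of each miRNA gene of the Clcn5 intron in CPM on a log axis, with replicate 1 in blue, replicate 2 in orange, exact 95% counting intervals as bars and the mean of both libraries as a black line. Mir532 stands highest at 720.1 CPM and Mir362 lowest at 25.8 CPM, and Mir501 has the widest gap between the libraries.

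Levels within the host intron thus covered a 27.9-fold range of mean CPM, or 4.75 on the log2(CPM + 1) scale. The range was 32.5-fold in replicate 1 and 24.4-fold in replicate 2. The order Mir532, Mir501, Mir188, Mir500, Mir362 was the same in both libraries. Each gap between neighbours in that order was larger than the sum of their SDs, and no pair of neighbours overlapped between libraries. The margin was smallest between Mir501 and Mir188, with a gap of 242.8 CPM against a summed SD of 242.0 CPM, from a 3.41-fold difference in replicate 1 and a 1.31-fold one in replicate 2. Counts of miRNAs are of whole short molecules and do not scale with hairpin length. Per 100 nt of hairpin the order was nevertheless the same, with levels of 750.1 CPM for Mir532, 408 for Mir501, 297 for Mir188, 133 for Mir500 and 39.7 for Mir362.

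Level did not follow position along the host. Mir532 and Mir188, 345 bases apart, differed 4.23-fold in replicate 1 (3.85 to 4.65) and 3.07-fold in replicate 2 (2.86 to 3.30), with Mir532 the higher. Mir362 and Mir501 are the next closest pair, 630 bases apart, and held the lowest level of the cluster and its second highest. Mir501 exceeded Mir362 by 26.2-fold in replicate 1 (20.7 to 33.8) and 10.4-fold in replicate 2 (8.67 to 12.6). Genes with a common seed on 1 strand also differed in their counts, which add both strands, so the strands themselves were not compared. Mir501 was 4.20-fold (3.79 to 4.68) and 2.91-fold (2.61 to 3.24) above Mir500, with which it shares the 3p seed. Mir500 in turn was 6.24-fold (4.84 to 8.15) and 3.58-fold (2.94 to 4.39) above Mir362, with which it shares the 5p seed.

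**Figure D2:**
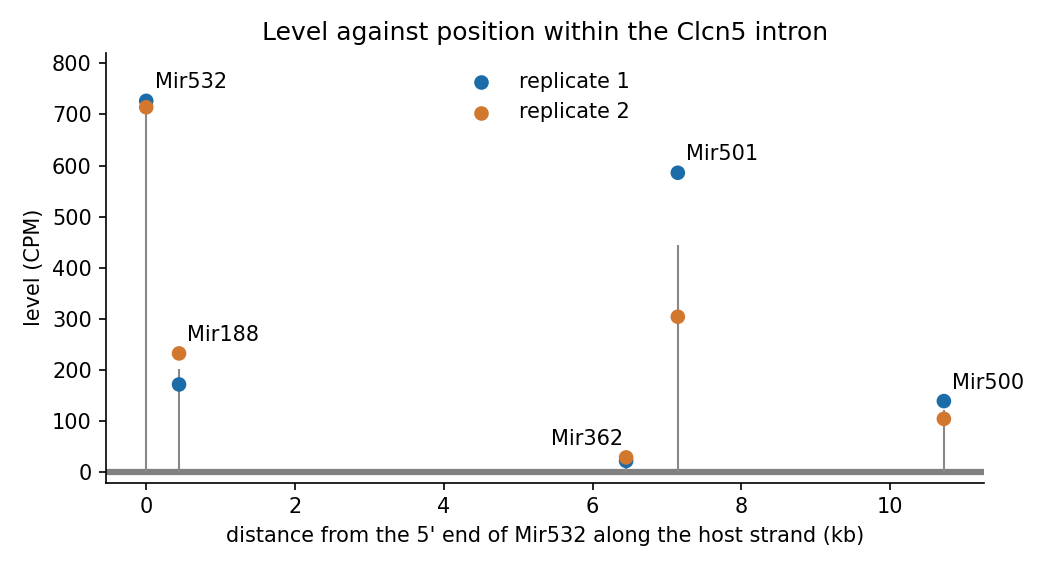
Level in CPM on a linear axis against the distance in kb from the 5′ end of Mir532 along the host strand, for replicate 1 (blue) and replicate 2 (orange). Grey stems reach to the mean, and the adjacent Mir362 and Mir501 stand at 25.8 and 445 CPM.

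The members did not move together between the libraries. Mir501 was 1.93-fold higher in replicate 1 (exact binomial 95% interval 1.79 to 2.07) and Mir500 was 1.33-fold higher there (1.17 to 1.52). Mir188 was 1.35-fold higher in replicate 2 (1.22 to 1.50), and Mir362 stood 1.31-fold higher there with an interval that includes equal levels (0.971 to 1.78). Mir532 was at 1.02-fold, replicate 1 over replicate 2 (0.964 to 1.07). The sum of the cluster was 1.19-fold higher in replicate 1 (1.15 to 1.23). These ratios compare 2 libraries of 1 group, not conditions, and their intervals hold counting error alone.

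None of the 5 members lay more than 2-fold apart between the libraries, beside 17.9% of the 459 genes with at least 10 counts in either library. Mir501, at 0.94 on the log2 scale, was just inside that limit. With library sizes that leave out the 10 most abundant genes, a setting added for this count after the data were seen, it was 2.08-fold apart and the count of members was 1 of 5, beside 20.0% of the 459 genes under that setting. On the log2 scale the others were at 0.41 (Mir500), 0.03 (Mir532), -0.37 (Mir362) and -0.43 (Mir188). The median size of that ratio was 0.41 over the members and 0.41 over the 459 genes. As a coefficient of variation, Mir532 was at 1.23%, Mir362 at 19.0%, Mir500 at 20.1%, Mir188 at 21.2% and Mir501 at 44.7%, and the median over detected genes was 17.7%. Marker levels also differed between the libraries. Of the astrocyte markers, Mir21a was at 5176 CPM in replicate 1 and 1686 CPM in replicate 2 and Mir31 at 1016 and 381 CPM, whereas Mir181d was at 1103 and 1254 CPM. All 3 choroid plexus and ependyma markers had the larger CPM in replicate 1, and the endothelial marker Mir126a in replicate 2. The neuron markers differed in both directions. Mir132 (21687 against 13106 CPM) and Mir433 (11287 against 9262) stood higher in replicate 1, whose value is given first. Mir128-1 (4545 against 9069), Mir137 (4757 against 6655) and Mir138-1 (2096 against 2244) stood higher in replicate 2. The part of these cell types in the members' ratios was not tested.

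**Figure D3:**
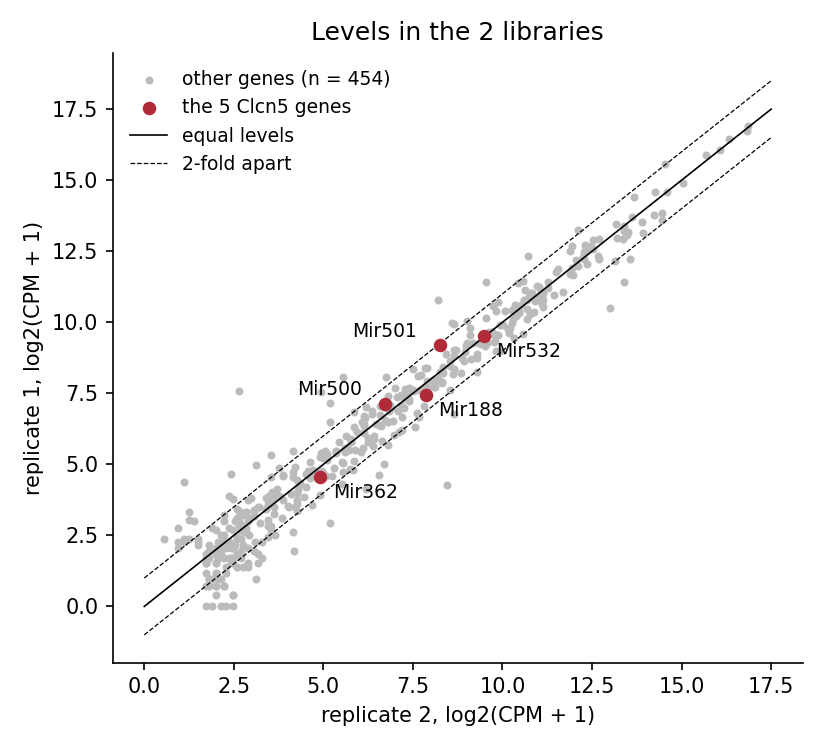
Levels in replicate 1 against replicate 2, both as log2(CPM + 1), for the 459 genes with at least 10 counts in either library, with the Clcn5 genes in red. Dashed lines mark 2-fold differences, and all 5 red points lie between them, with Mir501 beside the upper line.

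The unequal ratios changed the make-up of the cluster. Mir532 supplied 44.1% of the cluster's counts in replicate 1 (exact 95% interval 42.8% to 45.5%) and 51.6% in replicate 2 (50.3% to 52.8%). For Mir501 the share was 35.6% (34.3% to 36.9%) and 22.0% (20.9% to 23.0%). Mir188 contributed 10.4% (9.62% to 11.3%) and 16.8% (15.9% to 17.8%). Mir500 held 8.47% and 7.56% and Mir362 1.36% and 2.11%. The leading pair, Mir532 and Mir501, accounted for 79.7% and 73.5% of the counts in replicates 1 and 2. As each share depends on the other members, a rise of one lowers the rest.

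**Figure D4:**
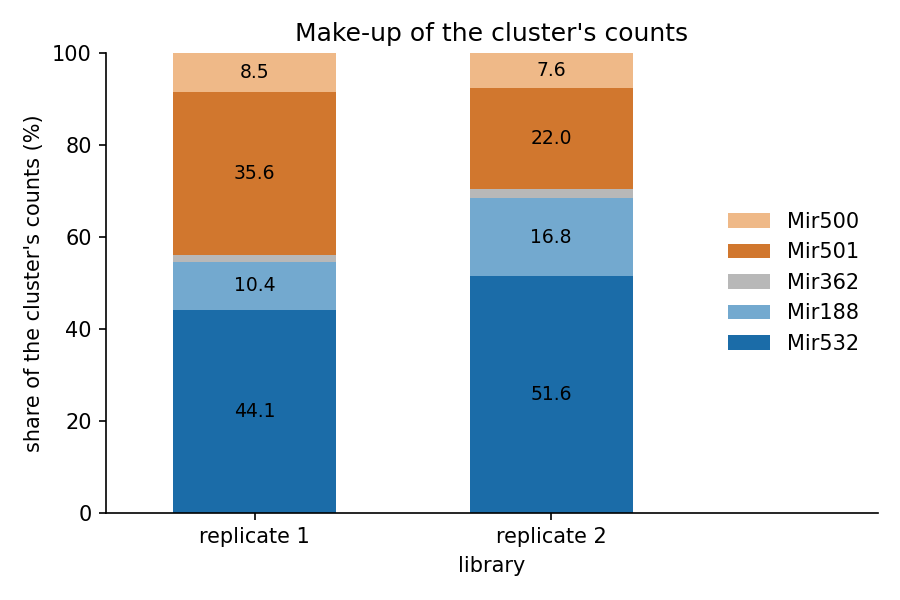
Share of the cluster's counts in percent held by each miRNA gene in each library, stacked in the order of the host strand from Mir532 at the bottom to Mir500 at the top. The segment of Mir501 is 35.6% in replicate 1 and 22.0% in replicate 2, and the thin grey segment is Mir362.

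Other miRNA genes in protein-coding introns give a scale for these levels. On the X chromosome, 36 further miRNA genes lie in an intron of a protein-coding gene on the same strand, and 16 of them (44.4%) were detected. The detected ones ran from 4.24 CPM for Gm22650 in Htr2c to 10736 CPM for Mir652 in Tmem164, with a median of 105 CPM. Over all 36 genes, the undetected ones included, the median was 0.137 CPM. The 5 Clcn5 members lay inside the range of the detected genes, with a median of 202 CPM.

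The annotation held 7 other sets of 3 or more miRNA genes in introns of 1 protein-coding host, with introns bounded by exons of every transcript. Clcn5 and Ttll10, which holds 3 genes of the miR-200 family, were the sets with every gene detected. In Htr2c, the X-linked serotonin receptor 2C gene, 5 of 7 miRNA genes were detected, led by Mir1298 at 255 ± 104 CPM (SD, n = 2), with Gm24627 at 0 counts in both libraries. The Htr2c set summed to 318 ± 116 CPM. The log2 ratios of its 5 detected genes ran from 0.08 for Mir1264 to 0.86 for Mir1298, a range of 0.78. This range was 1.38 for the Clcn5 members, 1.80 for the detected genes of Sfmbt2 and 1.86 for those of Ttll10, so Clcn5 lay between the other sets. The spread of levels among detected genes was 5.61 on the log2 scale in Htr2c, 5.51 in Sfmbt2 (8 of 119 genes detected), 2.55 in Ttll10 and 4.75 in Clcn5. These are descriptions of few sets, and no difference between them was tested. The Sfmbt2 genes include repeat families, such as that of Mir669c, with closely similar copies. Reads that map to several places are outside the counts, so the values for Sfmbt2 are uncertain.

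Mcm7, which encodes a subunit of the replicative helicase, holds Mir106b, Mir93 and Mir25, of which Mir93 and Mir25 overlap an exon of a retained-intron transcript. Counted with exons of protein-coding transcripts only, a setting added after the data were seen, the annotation gave 12 sets, Clcn5 and Mcm7 included, of which 5 had every gene detected. Mir93 was at 1208 ± 180 CPM, Mir106b at 331 ± 13.9 CPM and Mir25 at 53.9 ± 16.8 CPM (SD, n = 2). The spread in Mcm7 was 4.46 on the log2 scale, 4.95 in replicate 1 and 4.02 in replicate 2, beside 4.96 and 4.56 for Clcn5 in the same libraries. The other sets that this definition added with every gene detected lay on either side, at 9.16 for 2010111I01Rik and 2.26 for Spaca6. In 2010111I01Rik the lowest gene was Mir24-1. Copies of the strands of these sets elsewhere in the genome were not searched for. Reads that map to several places may thus be missing from some of these counts.

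Outside the cluster, 2 genes in the RefSeq table had a mature strand with the seed of 1 of the 9 member strands. The seed of miR-532-5p was not compared. That table held 1005 hairpins, fewer than the 2202 miRNA genes counted, so other relatives may be missing. miR-329-3p carries the seed of miR-362-3p, and both strands are shown to compare their 3′ parts:
miR-329-3p: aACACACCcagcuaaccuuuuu
miR-362-3p: aACACACCuguucaaggauuca
Mir329, of the imprinted Dlk1-Dio3 region on chromosome 12, had 583 and 967 counts, or 186 and 221 CPM in replicates 1 and 2, and a mean of 203 ± 24.7 CPM (SD, n = 2). In both libraries it was above Mir362, at 22.3 and 29.2 CPM. Mir7061, whose 3p strand has the seed of miR-188-5p, had 8 counts in replicate 1 and 1 in replicate 2, and was not detected. The remaining 5 seeds were on no strand outside the cluster in the table.

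Genes most like each member in level were found by the Euclidean distance of log2(CPM + 1) over the 2 libraries. Nearest to Mir532 were Mir150 at a distance of 0.21 and Mir346 at 0.24. For Mir501 they were Mir669c at 0.37 and Mir125b-2 at 0.44, the largest distances, and for Mir188 they were Mir329 at 0.13 and Mir218-2 at 0.18. Mir490 at 0.08 and Mir30b at 0.11 were nearest to Mir500, and Mir486 at 0.10 and Mir3057 at 0.16 to Mir362. Mir669c, Mir125b-2 and Mir218-2 belong to families with closely similar copies elsewhere in the genome, so their counts are uncertain. Over 2 libraries, this measure mainly compares levels.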

How the data were processed

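For each library the authors deposited raw counts by gene in 3 columns, after 4 summary lines. Per the deposited notes, the build is mm10 and the gene annotation M21. What aligned, trimmed and counted the reads was not stated in the sources used. The middle one of these 3 count columns, which held 93.4% (replicate 1) and 91.9% (replicate 2) of the stranded gene counts, was taken as sense. CPM was computed over its gene counts (3135960 and 4377622 reads), and log2 values with a pseudocount of 1 CPM. Symbols and positions came from GENCODE M21 and sequences from RefSeq (GRCm38.p6). The effect of CAST variants on mapping to mm10 was not tested. Shares and ratios have exact binomial 95% intervals (scipy 1.17.1). The interval and 2-fold calculations were tested on simulated counts with counting error alone. That test does not cover the other variation between these libraries. With 1 group there was no test between conditions, and levels were compared by their SD over 2 libraries. Named genes are the members, the 2 nearest genes to each, the detected seed relatives and the highest and lowest of the Htr2c and Mcm7 sets. Gm22650, Mir652, Mir1264, Mir106b, Mir24-1, Mir7061 and single markers were named after their values were seen. The members and lists were chosen with earlier results of these data known. Alternatives were TMM (edgeR 4.0.16), DESeq2 1.42.0 size factors, other library sizes, strand column, pseudocount, count minimum, hairpin length and each replicate left out.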

Additional observations from a re-analysis of the deposited data

How the results depend on the processing

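With all counts of the table as the library size, the cluster total was 496 CPM, and without the 10 most abundant genes 3608 CPM, which follows from the changed denominators. TMM, DESeq2 size factors and counts without regard to strand moved it by less than the SD, and leaving out each replicate gave 1385 to 1646 CPM. The log2 ratio of the total, replicate 1 over replicate 2, was 0.25, and 0.30 with DESeq2 size factors, 0.13 with all counts as library size and 0.36 without the 10 most abundant genes. These 4 scalings shifted the members' ratios by a median of 0.02 (TMM), 0.06 (DESeq2), -0.12 (all counts) and 0.11 (without the top 10). Mir501 and Mir500 remained above 0 and Mir188 and Mir362 below it under every scaling, strand and pseudocount tried, and Mir532 ranged from -0.10 to 0.14. The spread of the members was 4.21 on the log2 scale per 100 nt of hairpin, and 4.56 to 4.96 with 1 replicate left out. The share of genes over 2-fold apart fell to 8.06% with a pseudocount of 5 CPM, which shrinks ratios of low genes. Without the 10 most abundant genes 1 of 5 members, Mir501, passed 2-fold, beside 20.0% of all genes tested. All 5 members were detected with count minimums of 5 and 50, and their order held in each library, per length and without regard to strand. No paired analysis was possible because there was only 1 group. With 70 and 128 counts, depth limits Mir362 most.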

Other observations

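The predicted minimum folding energies of the RefSeq hairpins (RNAfold 2.7.2) were -46.9 kcal/mol for Mir501, -41.9 for Mir500, -33.2 for Mir532, -28.8 for Mir188 and -28.5 for Mir362. Per nucleotide, Mir532 had the weakest value at -0.346 kcal/mol, and the others lay between -0.424 and -0.455. GC content of the hairpins ran from 46.2% for Mir362 to 55.9% for Mir188. With 5 hairpins, no relation of these values to the levels was tested.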
